A study of Mus musculus with 8 samples.

Results

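The heat shock proteins and cytosolic chaperones were followed as a set of 37 genes, matched by symbol among the 24306 genes that the array named. Its members were chosen with earlier results of these data known. The set holds the Hsp90, Hsp70, Hsp110 and small heat shock protein families, the mitochondrial chaperonin pair Hspd1 and Hspe1, J-domain proteins, BAG-domain and other co-chaperones, and the regulators Hsf1 and Hsf2. Together they were read by 78 spots, with 1 spot for 17 genes and up to 6 spots for the other 20, and the spot with the highest mean stood for its gene. Of the 37 genes, 36 lay above the level filter that removed the dimmest 30% of all genes, which kept those with a mean log2 intensity above 3.39. Hspa1l, a testis-enriched Hsp70, was below it, with 3.17 and 2.82 in knockout hypoxia, 3.71 and 2.94 in knockout normoxia, 2.53 and 3.02 in wild-type hypoxia and 3.15 and 2.79 in wild-type normoxia, and was not tested.

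The cells were primary fibroblasts from mouse hearts, cultured in DMEM with 10% serum, and the array was a 1-colour Agilent design. The 4 groups were cells labelled Siah knockout (KO) kept for 6 h at 1% O2 (hypoxia), KO cells left untreated (normoxia), wild-type (WT) cells under the same hypoxia, and untreated WT cells, each with 2 samples numbered 1 and 2. The label does not say which Siah gene was altered, and the sources at hand state no age, strain or number of animals. The samples are described as biological replicates without stating which cultures or animals they came from, so the p-values reflect only how these samples spread, which may be technical.

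Heat shock proteins keep other proteins folded: Hsp70 binds exposed stretches of unfolded protein with the help of J-domain proteins, nucleotide exchange factors such as Hsp110 and BAG proteins recycle it, and Hsp90 finishes the folding of kinases and receptors. The inducible members are switched on by Hsf1, which binds repeats of the element GAA and its complement TTC in their promoters. Low oxygen acts mainly through the hypoxia-inducible factor HIF, which is itself a client of Hsp90. Siah ubiquitin ligases are known to remove prolyl hydroxylases, the enzymes that mark HIF for degradation.

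Promoters of 4 members are shown because they hold the Hsf1 motif and because they include a near-identical pair. They are RefSeq sequences of the assembly GRCm38.p6, read 5′ to 3′ on the strand of the gene, and end at the base before the annotated start. Capitals mark GAANNTTC or TTCNNGAA, which read the same on both strands; in Hspe1 they merge overlapping matches. Hspa1a lies at chr17:34972157-34972406 (minus strand), Hspa1b at chr17:34959239-34959488 (minus strand), Hspe1 at chr1:55087933-55088147 (plus strand) and Hspb1 at chr5:135887669-135887918 (plus strand).
Hspa1a: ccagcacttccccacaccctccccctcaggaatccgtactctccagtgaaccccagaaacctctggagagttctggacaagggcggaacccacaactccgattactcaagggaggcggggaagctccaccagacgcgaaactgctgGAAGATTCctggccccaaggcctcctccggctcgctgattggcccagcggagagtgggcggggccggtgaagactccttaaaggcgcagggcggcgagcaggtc
Hspa1b: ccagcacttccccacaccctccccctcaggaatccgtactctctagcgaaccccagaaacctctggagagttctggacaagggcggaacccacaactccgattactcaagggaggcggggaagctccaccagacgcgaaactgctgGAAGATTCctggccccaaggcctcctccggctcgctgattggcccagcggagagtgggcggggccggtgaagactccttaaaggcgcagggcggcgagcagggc
Hspe1: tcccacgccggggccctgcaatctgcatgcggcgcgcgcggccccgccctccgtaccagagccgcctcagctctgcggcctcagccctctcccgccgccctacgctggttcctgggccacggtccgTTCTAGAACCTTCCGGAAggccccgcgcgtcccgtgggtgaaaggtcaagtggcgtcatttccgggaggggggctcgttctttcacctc
Hspb1: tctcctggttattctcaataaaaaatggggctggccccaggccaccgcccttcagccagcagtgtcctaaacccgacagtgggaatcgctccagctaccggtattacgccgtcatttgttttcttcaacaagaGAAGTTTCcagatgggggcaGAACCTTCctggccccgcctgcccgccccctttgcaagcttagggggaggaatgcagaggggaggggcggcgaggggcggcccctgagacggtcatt

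The Hspa1a and Hspa1b windows differed at 3 of 250 bases and were 98.8% identical. These genes also encode nearly the same protein, so their spots may share signal and their values are uncertain as readings of single genes. The windows cannot show this, since they lie before the annotated start, and no spot sequences were compared. The 215 bases shown for Hspe1 also lie within the window of Hspd1, which is transcribed the other way, so the merged motif stands between both chaperonin genes. Of the 37 members, 28 had a promoter in the RefSeq table. None was found for Hsp90aa1, Hsp90ab1, Hspa8, Hspa9, Hspa13, Hspb2, Cryab, St13 and Hsf1. The motif stood in the 250 bases before a start in 10 of the 28 (35.7%), against 14.5% of all genes in the table. These were Dnaja1, Dnajb4, Dnajb6, Hspa1a, Hspa1b, Hspb1, Hspb6, Hspd1, Hspe1 and Hsph1. The stretch shared by Hspd1 and Hspe1 counts for both genes, as does the near-identical one of Hspa1a and Hspa1b. By window the motif stood in 12 of 40 for the members, against 12.8% of all 32851. The core of the HIF element, ACGTG or GCGTG on either strand, stood in 17 of the 28 (60.7%), against 41.5% of all genes. By window it stood in 23 of 40 for the members, against 38.6% of all windows. Some matches of the core can overlap each other, and a match describes the letters in the window and is not evidence of binding.

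The labelled cell type was read against its markers first. The 13 fibroblast markers had a mean log2 intensity between 12.91 and 13.26 in the 8 samples, but single genes differed between the genotypes: from -1.25 (Lum) to 1.05 (Thy1) on the log2 scale, KO minus WT, with Thy1 higher and Dcn, Lum and Pdgfra lower at an unadjusted p under 0.05 in limma and none called after adjustment. Lum, a matrix proteoglycan, averaged 6.91 in KO cells and 8.16 in WT cells, and Thy1, a surface glycoprotein, 14.32 and 13.27. The mean of 14 macrophage and leukocyte markers was 11.62 and 10.70 in KO hypoxia, 11.57 and 10.67 in KO normoxia, 12.01 and 12.50 in WT hypoxia and 12.09 and 12.54 in WT normoxia. It was lower in every KO than in every WT sample, and within each genotype it was ordered by sample number in the same way at both oxygen levels. All 14 of these genes passed the level filter. Smooth muscle and pericyte markers averaged 8.24 and 8.44 in KO hypoxia, 7.72 and 8.43 in KO normoxia, 8.93 and 8.70 in WT hypoxia and 8.92 and 8.63 in WT normoxia, with 2 of 12 genes (Kcnj8 and Abcc9) below the filter. Acta2 and Tagln, on the same list, lay between 15.98 and 16 in every sample, at the ceiling of the values. The 12 cardiomyocyte markers averaged 3.96 to 4.36, with Myh6, Myh7, Tnni3, Actn2 and Pln below the filter. Tnnt2, a sarcomere troponin, was the exception and gave 10.71 and 10.88 in KO hypoxia and 10.86 and 10.93 in KO normoxia, against 9.49 and 8.45 in WT hypoxia and 9.51 and 8.54 in WT normoxia. Every KO sample was above every WT sample, by 1.85 (SE 0.31, adjusted p = 0.131 in limma) in the average. Ryr2, dim at a mean of 3.71, was higher by 0.75 (SE 0.22, adjusted p = 0.319 in limma). The list was split, since of its 7 tested genes 4 were above 0 (KO minus WT) and 3 below, down to -0.81. Endothelial markers averaged 5.20 to 5.39 and skeletal muscle markers 5.10 to 5.23 in KO samples and 4.78 to 4.99 in WT samples. Both lists were split between the genotypes. Of 9 tested endothelial genes 3 were above 0 (KO minus WT), up to 1.26 (Emcn), and 6 below, with Erg under the filter. Of 5 tested skeletal muscle genes 3 were above 0, up to 1.51 (Myh2), and 2 below, with a median of 0.0. Ckm, Myod1 and Myog were under the filter. In bulk RNA, fewer cells of a type and less RNA per cell cannot be told apart.

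Low oxygen for 6 h moved no chaperone gene past the threshold. Nor did 10 HIF targets on the same arrays pass it. Their means were higher in hypoxia, but they were listed with earlier results of these data known. In the average of the KO and WT responses, 0 of the 36 tested members reached an adjusted p under 0.05 in limma, and 0 reached an unadjusted p under 0.05. The share of all 17014 tested genes was 0.0% at the adjusted threshold and 3.76% at the unadjusted one. Of the members, 12 had values above 0 and 24 below, with a median log2 change of -0.05 beside -0.01 for all genes, of which 46.8% were above 0. The lowest value was -0.38 (Hspa1b) and the highest 0.28 (Hspb2). For 32 of the 36 members the 95% interval lay wholly inside a log2 change of -1 to 1, that is, within 2-fold either way; Hspa12b, Hspa1a, Hspa1b and Hspb7 were the exceptions.

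For scale, 10 HIF-regulated genes were read beside the chaperones. Their list was chosen with earlier results of these data known, so they cannot serve as a check that the hypoxia reached the cells. All 10 had higher means in hypoxia, with a median log2 change of 2.21 in the average over genotypes. All 10 had an unadjusted p under 0.05 in limma, against 3.76% of all genes, although 0 passed after adjustment. The smallest change was 0.32 (P4ha1, a collagen prolyl hydroxylase), beside 0.28 for Hspb2. Bnip3, a mitophagy receptor, had 13.29 and 12.60 in KO hypoxia, against 10.54 and 10.45 in KO normoxia, and 13.33 and 14.26 in WT hypoxia, against 10.89 and 11.42 in WT normoxia. Its log2 change was 2.55 (SE 0.28), and those of Ero1a, an oxidase of disulfide formation, Slc16a3, a lactate exporter, and Ankrd37 were 1.31 (SE 0.14), 2.25 (SE 0.25) and 4.14 (SE 0.48). Their limma adjusted p-values lay between 0.147 and 0.173. The forest plot sets these 4 genes beside the members.

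**Figure D1:**
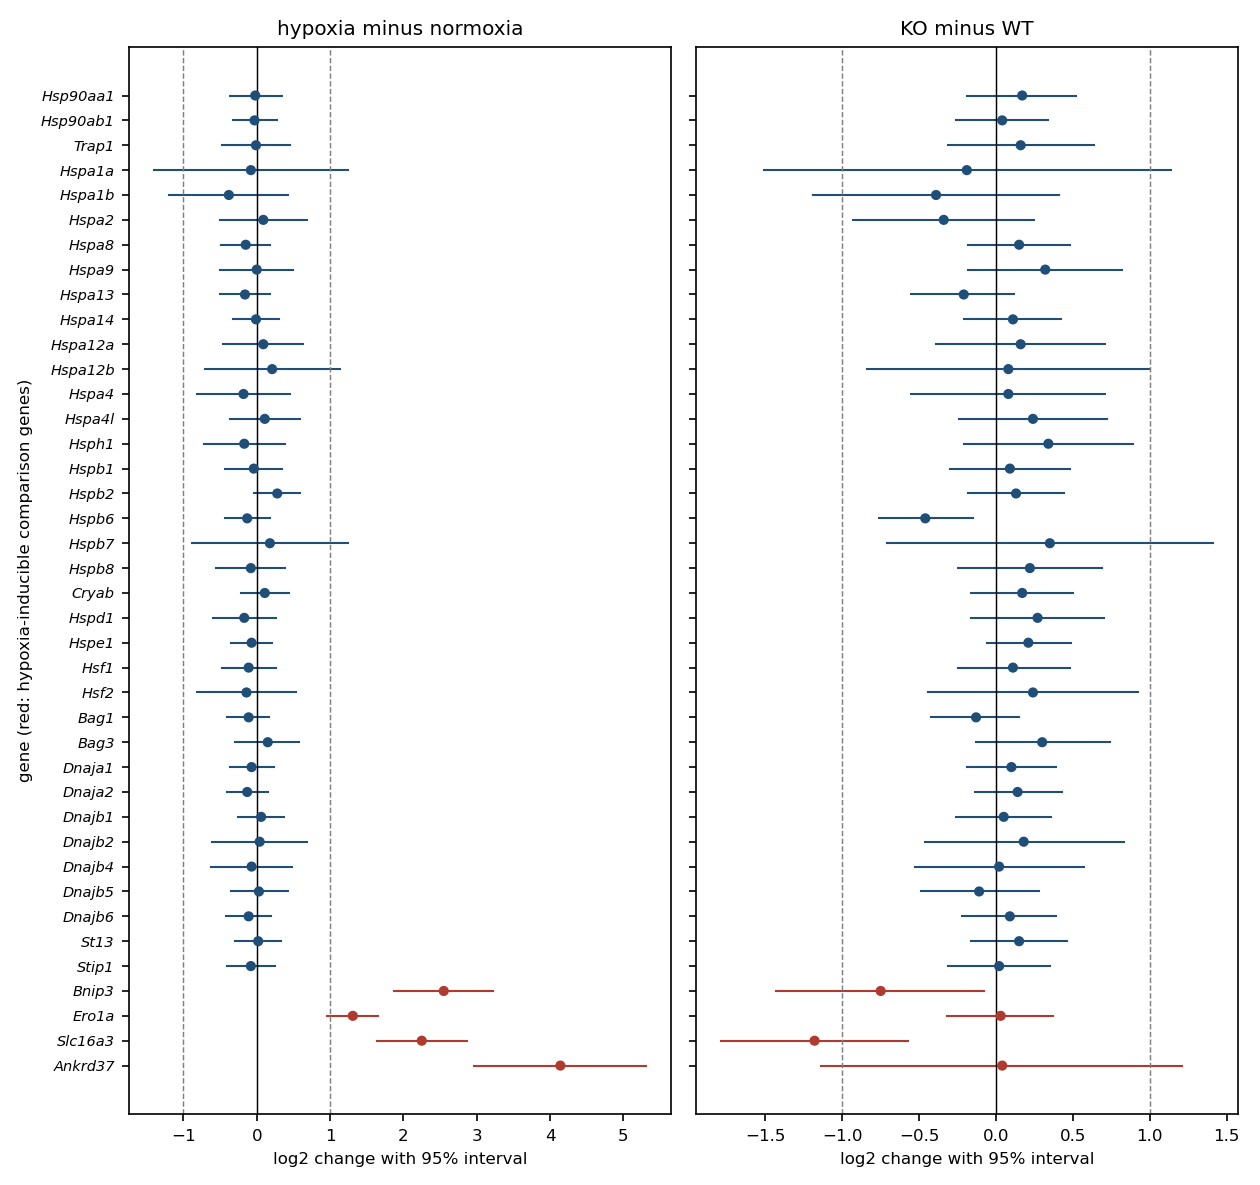
Log2 change of the 36 tested chaperone genes (blue) and 4 HIF-regulated genes (red), hypoxia minus normoxia averaged over genotypes on the left and KO minus WT averaged over oxygen levels on the right. Points are limma estimates, bars their 95% intervals and dashed lines a log2 change of -1 and 1. In the left panel the chaperones lie between -0.38 and 0.28 and the 4 plotted HIF-regulated genes, chosen from 10 for their small p, between 1.31 and 4.14; in the right panel the interval of Hspb6 alone among the chaperones excludes 0.

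Within the Hsp90 family, all 3 members had log2 changes with hypoxia between -0.03 and -0.01. Hsp90aa1, the stress-inducible cytosolic form, gave 14.26 and 14.23 in KO hypoxia, against 14.39 and 14.06 in KO normoxia, and 14.00 and 14.08 in WT hypoxia, against 14.26 and 13.93 in WT normoxia. Both hypoxia groups lay inside the range of their own normoxia group. Hsp90ab1, the constitutive form, gave 15.16 and 15.26 in KO hypoxia, against 15.14 and 15.19 in KO normoxia, and 15.01 and 15.20 in WT hypoxia, against 15.29 and 15.11 in WT normoxia. Averaged over genotypes, the 95% interval of the hypoxia change was -0.37 to 0.34 for Hsp90aa1 and -0.33 to 0.27 for Hsp90ab1.

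The inducible Hsp70 genes varied more between samples of the same group. Hspa1a, with the promoter shown above beside that of Hspa1b, gave 9.27 and 8.30 in KO hypoxia, against 9.51 and 8.20 in KO normoxia, and 8.23 and 9.70 in WT hypoxia, against 8.29 and 9.81 in WT normoxia. Each of the 4 groups held 1 high and 1 low sample, and its hypoxia change was -0.08 (SE 0.55, 95% interval -1.40 to 1.25). Hspa1b gave 9.47 and 8.96 in KO hypoxia, against 10.06 and 8.99 in KO normoxia, and 9.32 and 9.75 in WT hypoxia, against 9.52 and 10.45 in WT normoxia, a change of -0.38 (SE 0.33, 95% interval -1.19 to 0.42). Its groups overlapped within both genotypes. For Hspa8, the constitutive Hsc70, the values were 14.91 and 14.83 in KO hypoxia, against 15.08 and 14.88 in KO normoxia, and 14.56 and 14.80 in WT hypoxia, against 14.76 and 14.99 in WT normoxia. These groups overlapped too, and the change was -0.15 (SE 0.14, 95% interval -0.49 to 0.18). The other 6 tested Hsp70 genes, among them the mitochondrial Hspa9, had changes between -0.16 (Hspa13) and 0.21 (Hspa12b).

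Among the nucleotide exchange factors, Hsph1, the Hsp110 partner of Hsp70, gave 11.94 and 11.36 in KO hypoxia, against 11.96 and 11.61 in KO normoxia, and 11.08 and 11.47 in WT hypoxia, against 11.17 and 11.79 in WT normoxia. Hypoxia and normoxia overlapped in both genotypes, with a change of -0.17 (SE 0.23). Bag3, which links Hsp70 to small heat shock proteins and to autophagy, gave 12.87 and 12.88 in KO hypoxia, against 12.91 and 12.84 in KO normoxia, and 12.60 and 12.85 in WT hypoxia, against 12.10 and 12.75 in WT normoxia. Its change was 0.15 (SE 0.18), and WT normoxia sample 1 was the lowest of the 8 samples. Hspa4, Hspa4l and Bag1 had changes of -0.18, 0.11 and -0.11.

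In the J-domain family, whose proteins hand clients to Hsp70, the 7 genes had hypoxia changes between -0.13 (Dnaja2) and 0.06 (Dnajb1). Dnajb1, the stress-inducible Hsp40, gave 12.40 and 12.28 in KO hypoxia, against 12.43 and 12.27 in KO normoxia, and 12.24 and 12.48 in WT hypoxia, against 12.20 and 12.25 in WT normoxia. The groups overlapped in both genotypes. The adaptors St13 and Stip1, which bind Hsp70 and, for Stip1, bridge it to Hsp90, had changes of 0.02 and -0.08.

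Small heat shock proteins hold unfolding proteins without ATP. Hspb1 gave 15.65 and 15.43 in KO hypoxia, against 15.37 and 15.78 in KO normoxia, and 15.62 and 15.27 in WT hypoxia, against 15.51 and 15.46 in WT normoxia. Cryab, the alpha-B crystallin abundant in heart, gave 15.08 and 15.07 in KO hypoxia, against 14.81 and 14.94 in KO normoxia, and 14.91 and 14.72 in WT hypoxia, against 14.95 and 14.63 in WT normoxia. The oxygen groups of Hspb1 overlapped in both genotypes, and those of Cryab were apart in KO cells but not in WT cells; 10.2% of all genes lay apart in KO cells with hypoxia higher. Values of both genes are close to the upper end of the deposited range, 16, which can compress a change. The same limit applies to Hsp90ab1 and Hspa8, with means of 15.17 and 14.85 over the 8 samples.

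Hspb2, a muscle-enriched small heat shock protein, was the single member whose 4 hypoxia samples lay apart from its 4 normoxia samples, and it was picked out after its values were seen. It gave 10.28 and 10.36 in KO hypoxia, against 10.17 and 10.12 in KO normoxia, and 10.30 and 10.28 in WT hypoxia, against 10.07 and 9.76 in WT normoxia. Such a separation with hypoxia higher was seen for 1.35% of all genes tested. The log2 change was 0.17 (SE 0.18) in KO cells, 0.38 (SE 0.18) in WT cells and 0.28 (SE 0.13) in the average, where the unadjusted p in limma was 0.0742 and the adjusted p was 1.0, so it did not pass. Dropping WT normoxia sample 1 gave 0.35 in the average, with an unadjusted p of 0.0435.

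Hsf1 itself, whose transcript level need not follow its activity, gave 10.06 and 10.40 in KO hypoxia, against 10.22 and 10.17 in KO normoxia, and 10.16 and 9.80 in WT hypoxia, against 10.27 and 10.18 in WT normoxia. The WT hypoxia samples were both below the WT normoxia samples, as for 11.6% of all genes, and the KO groups overlapped. Its change was -0.11 (SE 0.15, 95% interval -0.47 to 0.26), and that of Hsf2 was -0.14 (SE 0.28).

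Taken by genotype, the hypoxia comparison gave 0 of 36 members at an unadjusted p under 0.05 in KO cells and 0 of 36 in WT cells in limma, where 2.6% and 3.62% of all genes did so. After adjustment 0 members passed in either genotype, as did 0.0% of all genes. Above 0 were 17 of 36 members in KO cells, against 46.8% of all genes, and 12 of 36 in WT cells, against 47.7%. The members' median was -0.02 in KO cells, the same as that of all genes, and -0.06 in WT cells, beside -0.01. The difference between these responses, KO minus WT, had a median of 0.07 over the members and ran from -0.55 (Hsf2) to 0.29 (Dnajb5), with 24 of 36 above 0, against 49.8% of all genes. No member had an unadjusted p under 0.05 for it, against 2.45% of all genes, and 0 of 36 members and 0.0% of all genes passed after adjustment. Only 19 of the 36 intervals lay within a log2 difference of -1 to 1, so these samples bound the difference loosely.

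**Figure D2:**
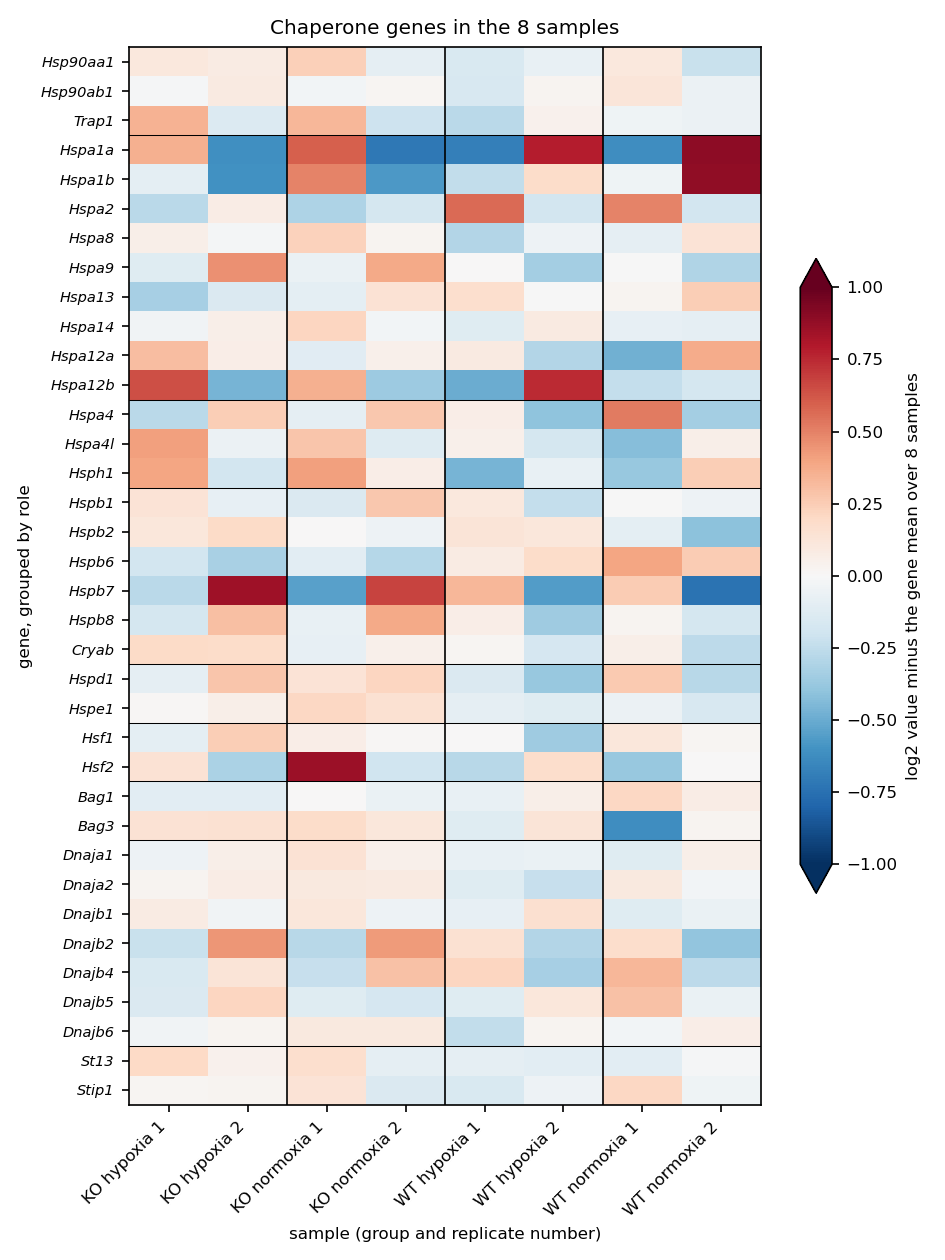
Each row is a tested chaperone gene, each column a sample, and the colour is the log2 value minus the mean of that gene over the 8 samples, with genes grouped by role between thin lines. Rows such as Hspa1a and Hspb7 change colour between the samples numbered 1 and 2 within a genotype, in opposite directions in KO and WT cells, while Hspb6 is below its mean in all 4 KO samples and above it in all 4 WT samples.

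Between the genotypes, averaged over oxygen levels, 1 of 36 members had an unadjusted p under 0.05 in limma, against 9.95% of all genes. Hspb6 was that member, and also the only one in normoxia, where the share of all genes was 6.48%. Hspb6 (Hsp20), a small heat shock protein abundant in muscle, gave 9.30 and 9.16 in KO hypoxia and 9.38 and 9.20 in KO normoxia, against 9.57 and 9.67 in WT hypoxia and 9.88 and 9.74 in WT normoxia. Over both oxygen levels together it averaged 9.26 ± 0.10 in KO cells and 9.71 ± 0.13 in WT cells (SD, n = 4 samples each, which may share cultures). Every KO sample was below every WT sample. This lower order without overlap was seen in 4.86% of all genes. The log2 difference, KO minus WT, was -0.46 (SE 0.12, 95% interval -0.76 to -0.15) in the average over oxygen levels, with an unadjusted p of 0.0100 and an adjusted p of 0.283 in limma. It was -0.52 (SE 0.18) in normoxia, with an unadjusted p of 0.0254, and -0.40 (SE 0.18) in hypoxia, with an unadjusted p of 0.0649. It therefore did not pass the adjusted threshold in any comparison. A second spot, dimmer at a mean of 5.97, gave -0.52 in the average.

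The smooth muscle and pericyte markers, whose cells also express Hspb6, were lower as a mean, but not gene by gene. Their mean lay between 7.72 and 8.44 in the KO samples and between 8.63 and 8.93 in the WT samples, and of the 10 tested genes 7 were below 0 and 3 above, up to 0.53 (Lmod1). Of these, 3 were lower at an unadjusted p under 0.05, and Mylk also passed the adjusted threshold (-1.66, SE 0.13, adjusted p = 0.0298 in limma). Their part in the Hspb6 difference was not tested, and the same holds for the macrophage markers, of which all 14 were lower in KO cells, 12 of them at an unadjusted p under 0.05.

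The remaining members mostly lay slightly higher in KO cells. In the average over oxygen levels 29 of the 36 members were above 0 and 7 below, with a median of 0.12, beside 54.0% of all genes above 0 and a median of 0.03. In limma 0 members passed the adjusted threshold, as 0.047% of all genes did. At an unadjusted p under 0.05 was 1 of 36, against 9.95% of all genes, a count too small to rank against that share. Medians over the 3 tested Hsp90 genes, the 3 Hsp110 genes and the chaperonin pair were 0.16, 0.24 and 0.24, with the chosen spot of every gene in these families above 0. A second Hsp90aa1 spot of nearly the same brightness (mean 14.06, against 14.15) gave -0.03 in the average, 0.05 in hypoxia and -0.10 in normoxia, so the direction of the average depends on the spot for this gene. Over all members, 21 further spots of 12 genes had a mean above 6, and 17 of them had the sign of the chosen spot in the genotype average. The 9 tested Hsp70 genes were split, 5 above and 4 below 0, with Hspa1b (-0.39), Hspa2 (-0.34), Hspa13 (-0.21) and Hspa1a (-0.19) below. The other 2 members below 0 beside Hspb6 were Bag1 (-0.13) and Dnajb5 (-0.11). The 95% interval lay within -1 to 1 for 32 of the 36, and again Hspa12b, Hspa1a, Hspa1b and Hspb7 were the exceptions.

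Hspe1, the mitochondrial Hsp10 and the lid of the Hspd1 chamber, was the single member with all 4 KO samples above all 4 WT samples, an order seen in 3.96% of all genes, and was likewise picked out after its values were seen. It gave 13.17 and 13.22 in KO hypoxia and 13.37 and 13.31 in KO normoxia, against 13.07 and 13.04 in WT hypoxia and 13.10 and 13.00 in WT normoxia. The difference was 0.21 (SE 0.11, 95% interval -0.06 to 0.49), with an unadjusted p of 0.108 and an adjusted p of 0.636 in limma. Its 2 other spots gave 0.36 and 0.31. Hspd1, across the shared promoter, gave 0.27 (SE 0.18), and its KO and WT samples overlapped.

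The average over oxygen levels is the mean of the genotype comparisons at each level, so agreement with it is built in. In hypoxia 27 of 36 were above 0 (KO minus WT), against 52.6% of all genes, with a median of 0.13 beside 0.02 for all genes, and 0 had an unadjusted p under 0.05, against 6.24% of all genes. In normoxia 24 of 36 were above 0, against 53.9% of all genes, with a median of 0.10 beside 0.03, and Hspb6 alone had an unadjusted p under 0.05, against 6.48% of all genes. The share of all genes past the adjusted threshold was 0.00588% in each, with 0 members among them. Of the 8 inducible genes, Hsph1 differed by 0.38 in hypoxia and 0.30 in normoxia, Cryab by 0.26 and 0.09, Hsp90aa1 by 0.21 and 0.13, Bag3 by 0.15 and 0.45, and Hspb1 by 0.10 and 0.09. Dnajb1 differed by -0.02 and 0.12, Hspa1a by -0.18 and -0.20, and Hspa1b by -0.32 and -0.46, and none of the 8 was past either threshold. These comparisons use the same samples as the hypoxia comparisons and are not independent of them.

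**Figure D3:**
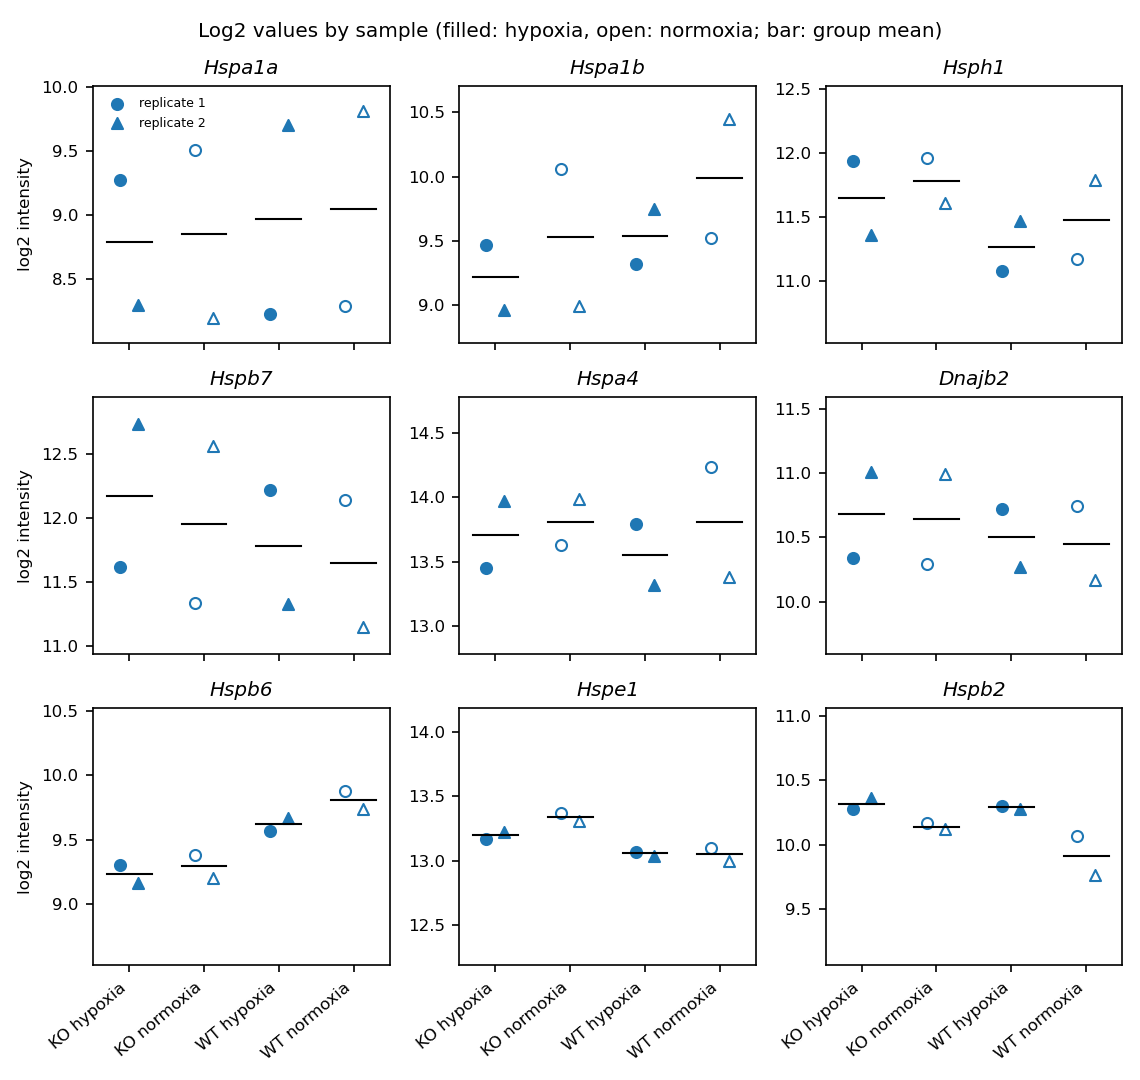
Log2 intensity of 9 chaperone genes in the 8 samples, on axes that each span 2 log2 units; circles are samples numbered 1, triangles samples numbered 2, filled symbols hypoxia, open symbols normoxia, and bars group means. Samples of the same group differ by 0.88 to 1.52 in Hspa1a and Hspb7, and by 0.18 or less in Hspb6 and Hspe1.

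The largest differences among the chaperones ran between samples of the same group. Sample number within genotype held the largest share of the sum of squares over the 8 samples for 21 of the 36 members, a description that compares with 47.4% of all genes, while genotype held it for 7 (19.8% of all genes), the remainder for 7 (19.9%) and oxygen for 1, Hspb2 (7.76%). Sample number within genotype and the remainder each combine more components than oxygen, genotype or their interaction, so a larger share is partly built in. The median share over the members was 41.2% for number within genotype, 19.9% for genotype and 5.84% for oxygen, beside 35.7%, 12% and 4.88% over all genes. Hspa1a had 96.9% of its sum of squares there, Dnajb4 94.7%, Dnajb2 90.9%, Hspb7 87.4% and Hspa4 82.8%. These genes were picked out after their values were seen.

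**Figure D4:**
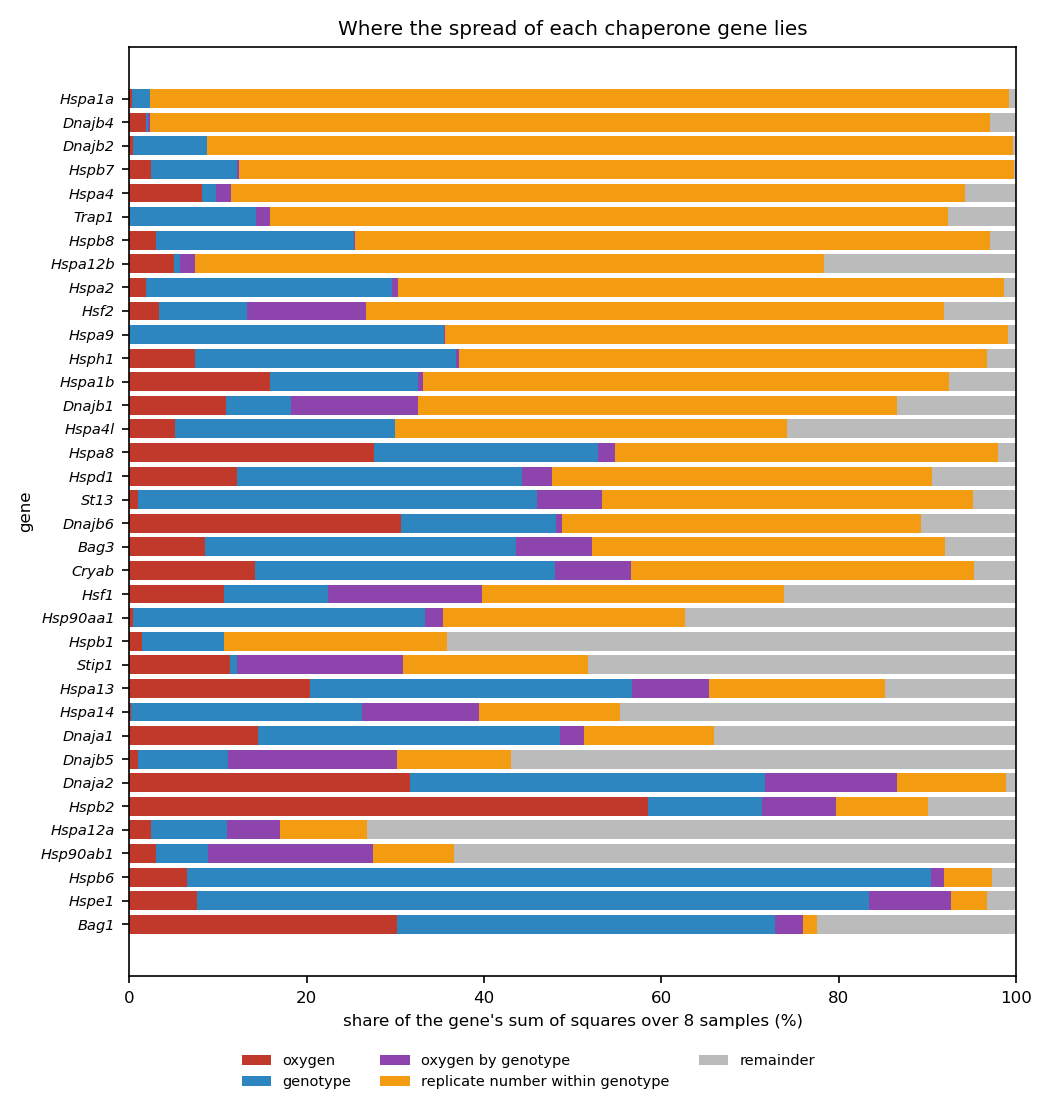
Share of the sum of squares over the 8 samples, in percent, that each tested chaperone gene owes to oxygen, genotype, their interaction, sample number within genotype, and the remainder. Sample number and the remainder each combine more components than the other parts, so a larger share is partly built in. Genes are ordered by the share of sample number, from 96.9% in Hspa1a at the top to 1.6% in Bag1 at the bottom; oxygen is the largest part in Hspb2 alone, at 58.5%.

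For 15 members the samples numbered 1 and 2 did not overlap in either genotype, as in 33.6% of all genes, and in all 15 the order was opposite in KO and WT cells. This opposite order was seen in 30.2% of all genes, and the same order in 3.42%. Higher in KO sample 1 and WT sample 2 were Hspa1a, Hspa1b, Hspa8, Hspa12b, Hsph1, Hsf2 and Dnajb1, a pattern of 17.0% of all genes. Of the 8 stress-inducible genes described above, Hspa1a, Hspa1b, Hsph1 and Dnajb1 showed this order, and Hspb1, Hsp90aa1, Bag3 and Cryab did not. Higher in KO sample 2 and WT sample 1 were Hspa2, Hspa4, Hspa9, Hspb7, Hspb8, Hspd1, Dnajb2 and Dnajb4, a pattern of 13.3% of all genes. Hspb7, a small heat shock protein of heart and muscle, gave 11.62 and 12.73 in KO hypoxia, against 11.34 and 12.56 in KO normoxia, and 12.22 and 11.33 in WT hypoxia, against 12.14 and 11.15 in WT normoxia. Hspa4, an Hsp110-type exchange factor, gave 13.45 and 13.97 in KO hypoxia, against 13.63 and 13.99 in KO normoxia, and 13.79 and 13.32 in WT hypoxia, against 14.24 and 13.38 in WT normoxia.

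Some of the marker lists ran the same way as these groups. The macrophage mean was higher in KO sample 1 than in KO sample 2 and in WT sample 2 than in WT sample 1 at both oxygen levels, as for Hspa1a. The means of the smooth muscle, fibroblast and cardiomyocyte lists were all ordered the other way, as for Hspb7. The skeletal muscle mean was instead lower in sample 1 than in sample 2 in both genotypes at both oxygen levels. The endothelial mean had no fixed order in KO cells, with 5.25 and 5.27 in hypoxia and 5.39 and 5.20 in normoxia. Single genes also left the order of their list, such as the macrophage gene Csf1r in KO hypoxia, at 11.88 and 12.68. The part of these lists in the pattern was not tested. What the numbers 1 and 2 stand for (an animal, an isolation or an array run) is not stated, so these cannot be told apart.

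Other chaperone genes, on 4 lists chosen with earlier results known, were counted in the same fit. Of 72 listed genes 70 were tested, and with hypoxia 22 were above 0 and 48 below in the average, 24 and 46 in KO cells, and 23 and 47 in WT cells, where 46.8% of all genes were above 0 in the average. The Hsp90 co-chaperones lay below 0 in 17 of 18 in the average, with a median of -0.13, and 0 of them had an unadjusted p under 0.05. Among all 70, the mitochondrial protease Lonp1 alone had one in the hypoxia average, at a log2 change of 0.33 (SE 0.13, unadjusted p = 0.0448, adjusted p = 1.0 in limma). It gave 12.57 and 12.57 in KO hypoxia, against 12.20 and 12.43 in KO normoxia, and 12.47 and 12.68 in WT hypoxia, against 12.25 and 12.11 in WT normoxia, with no overlap between oxygen levels, as for the 1.35% of all genes given above. The Hsp70 co-chaperones had 7 above and 17 below 0, the other heat shock and organelle chaperones 10 and 4, and the cytosolic chaperonin and prefoldin genes 4 and 10.

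Between the genotypes, 53 of the 70 other chaperones were above 0 (KO minus WT) and 17 below in the average, where 54.0% of all genes were above 0, with 53 and 17 in hypoxia and 48 and 22 in normoxia. By list the average gave 16 above and 2 below for the Hsp90 co-chaperones, 13 and 11 for the Hsp70 co-chaperones, 11 and 3 for the organelle list, and 13 and 1 for the chaperonin and prefoldin genes, whose median was 0.19. None of the 70 had an unadjusted p under 0.05 in the average and 0 passed after adjustment in limma. For the difference of the responses, 40 were above 0 and 30 below.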

How the data were processed

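The authors deposited 1 table of 62976 spots by 8 samples, taken here as log2 intensities because its values run from 2.13 to 16; no source at hand states the log base, background correction or normalization. All columns share a median of 3.94, so they were already on a common scale, and 10 values were missing. The submitters' processing notes name limma and no version. Spots were named through the platform annotation and RefSeq symbols (GRCm38.p6).

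As deposited, the values of 17014 genes entered a fit in limma 3.58.1 (R 4.3.3) with 1 mean per group, 4 residual and 2.25 prior degrees of freedom, and Benjamini-Hochberg adjustment over all genes. Flags for background or saturation were not used here; the values have a ceiling near 16, and the number of arrays limits precision.

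Members and lists were chosen with earlier results of these data known. Named with values in every sample are members at an unadjusted p under 0.05, 8 stress-inducible genes, Hspa8, Hsp90ab1 and Hsf1; of other lists, genes with the smallest p. Hspb2, Hspe1 and those named for their spread between samples were added after their values were seen. Alternatives changed the scaling, level filter, spot rule, variance model, samples, replicate or culture block and each sample in turn.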

Additional observations from a re-analysis of the deposited data

How the results depend on the processing

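No member passed the adjusted threshold in any of the 20 alternatives in limma. The members' median changes, which most alternatives leave as they are by construction, moved when samples were left out: to between -0.07 and 0.04 for hypoxia in KO cells, above 0 only without KO normoxia sample 1, between -0.08 and -0.02 in WT cells and in the hypoxia average, between 0.07 and 0.14 for KO in hypoxia, between 0.05 and 0.11 for KO in normoxia, between 0.09 and 0.14 in the genotype average and between 0.01 and 0.11 for the response difference. With the mean over spots KO in hypoxia had a median of 0.08. Of 2496 alternative values for members, 879 differed from the reported one at 2 decimals, all with the mean over spots or without a sample; 150 turned direction, and 18 newly reached an unadjusted p under 0.05. The genotype average of Hspb6 kept an unadjusted p under 0.05 in every alternative run for it (log2 difference -0.50 to -0.41, p 0.00524 to 0.0392). In normoxia it lost this when only the compared groups were fitted (p 0.0791), without KO normoxia sample 2 (0.125) and without WT normoxia sample 1 (0.100); fewer samples entered each of these fits.

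Counts of all genes past the adjusted threshold moved more. With the dimmest 50% removed they were 3 for KO in normoxia and 45 for the genotype average, where fewer genes were tested. With a variance trend they were 15 for the hypoxia average and 62 for the genotype average. Fitting only the compared groups gave 0 in hypoxia and 0 in normoxia between genotypes. Members at an unadjusted p under 0.05 numbered 1 for KO in hypoxia (Hspb6) and 1 for the hypoxia average (Hspb2) with the dimmest 50% removed, against 6.62% and 3.3% of all genes; 2 for KO in normoxia and 3 for the genotype average with the mean over spots (Hspb6, Hspe1 and, in the average, Hspa4l), against 6.12% and 9.47%; 2 and 2 with a variance trend (Hspb6 and Hspe1), against 5.82% and 9.9%; and 0 for KO in normoxia with only the compared groups, against 5.63%. The cause of these shifts was not tested.

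Leaving out 1 sample at a time gave 0 to 7 genes past the adjusted threshold for hypoxia in KO cells, 0 to 1 in WT cells, 0 to 8 between genotypes in hypoxia, 0 to 1 in normoxia, 0 to 4 for the hypoxia average, 1 to 12 for the genotype average and 0 to 7 for the response difference. The members at an unadjusted p under 0.05 numbered 0 to 1 for hypoxia in KO cells, in WT cells and in the average, 0 to 2 between genotypes in normoxia and 1 to 2 in the genotype average, where the shares of all genes were 2.59% to 3.5%, 3.41% to 5.25%, 3.11% to 4.44%, 4.75% to 6.57% and 7.62% to 9.98%. Without KO normoxia sample 2, Hsf2 was at -0.94 with hypoxia in KO cells (p 0.0418) and 1.04 between genotypes in normoxia (p 0.0295). Without WT normoxia sample 2, Bag3 was at 0.63 with hypoxia in WT cells (p 0.0381), 0.78 in normoxia (p 0.0174) and 0.47 in the genotype average (p 0.0230). Without WT normoxia sample 1, Hspb2 was at 0.54 with hypoxia in WT cells (p 0.0468).

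Nothing in the labels pairs the numbers. In the values, deviations from the group means correlated at 0.338 and 0.308 within a genotype but at -0.378 to -0.262 between genotypes. Whether samples of the same genotype and number share a culture was not tested. The main fit took all 8 samples as independent, and its p-values depend on that. With the replicate block, 1 gene was called in the genotype average, and the count of members at an unadjusted p under 0.05 was unchanged (1 for KO in normoxia and 1 in the genotype average, against 5.5% and 8.42% of all genes). With the culture as a fixed block, taking samples of 1 genotype and number as 1 culture, only hypoxia comparisons could be fitted. There 0 genes passed the adjusted threshold. In limma 0 of 36 members had an unadjusted p under 0.05 in KO cells, in WT cells or in the average. The shares of all genes were 5.11%, 6.9% and 7.28%. For the response difference 0 members did so, against 4.41% of all genes. Chosen after seeing the data, the crossed replicate block gave 453 genes past the adjusted threshold in the genotype average, with 0 members among them. At an unadjusted p under 0.05 in limma there were 5 members in that average (18.3% of all genes). The count was 3 for KO in hypoxia (12.7%) and 1 for KO in normoxia (12.9%). It was 1 for hypoxia in WT cells (6.81%) and 2 for the hypoxia average (7.12%). The culture as a random block, also chosen after seeing the data, gave 1 gene in the genotype average, 15 genes and 1 member (Hspb2) in the hypoxia average (7.08% of all genes), and 1 member (Hspb2) for hypoxia in WT cells (7.15%).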
